A study of Capra hircus with 9 samples.

Results

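The 10 genes described here encode central parts of the unfolded protein response of the endoplasmic reticulum (ER): the sensors EIF2AK3, ERN1 and ATF6, the transcription factors ATF4, XBP1 and DDIT3, the chaperones HSPA5, HSP90B1 and DNAJB9, and HERPUD1, a membrane protein of the degradation route. They were chosen by name, as the rows of the deposited table that carry these symbols, and all 10 were found among its 23499 genes. The table covers mammary gland tissue of 9 healthy Laoshan dairy goats in the third parity, with an average age of 4 years, kept on the same farm and sampled at slaughter. Of these goats, 3 were in late lactation (LL, 240 days postpartum), 3 in the dry period (DP, 300 days postpartum) and 3 in late gestation (LG, 140 days after mating), and each gave 1 library. Stage is the label that separates the groups, no treatment is named, and each stage was sampled in different goats, so no goat was followed through time. The libraries were prepared from total tissue with a kit that does not mark strand. The values were read as FPKM, fragments scaled to gene length and to the total of the library, and the number of reads behind each is not known.

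When proteins that are not yet folded build up in the ER, 3 membrane sensors respond. PERK, the product of EIF2AK3, phosphorylates the initiation factor eIF2 alpha, which slows translation in general while the mRNA of ATF4 is translated more; ATF4 in turn raises genes of amino acid supply and DDIT3, which encodes CHOP. IRE1, the product of ERN1, splices the mRNA of XBP1 into the form that encodes an active factor for secretory and degradation genes, and ATF6 is cut in the Golgi apparatus to release a factor for chaperone genes. Secretory cells such as those of the lactating mammary gland pass large amounts of protein through the ER. The table holds total RNA per gene, so splicing of XBP1, cleavage of ATF6 and phosphorylation of PERK or eIF2 alpha were not measured.

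All 6 markers of luminal epithelium were present in every library, but their makeup differed between the stages. EPCAM, an epithelial adhesion molecule, was at 25.3 to 37.2 FPKM during LL, 31.1 to 59.3 during DP and 63.7 to 71.7 during LG, and KRT8, a keratin of luminal cells, was at 37.1 FPKM or more in all 9 libraries. ELF5, a transcription factor of secretory epithelium and the most abundant of the list in LL and LG, was at 335, 374 and 266 FPKM during LL, 39.5, 63.7 and 37.6 during DP and 540, 504 and 654 during LG, and on the scaled values explained next it fell in DP against LL (log2 fold change -4.19 ± 0.25 (SE), limma, adjusted p = 3.13e-06). EPCAM and CDH1, another adhesion molecule, were at -0.74 and -0.48 in the same comparison (limma, adjusted p = 0.0257 and 0.0311). The keratins KRT8, KRT18 and KRT19 were at 0.28, 0.6 and -0.4 there (limma, adjusted p = 0.416, 0.0708 and 0.299). In LG against LL none of the 6 markers was called on the scaled values. EPCAM was at 0.06 and ELF5 at -0.37 in that comparison (limma, adjusted p = 0.866 and 0.242). CSN2, the beta casein gene, was at 97918, 101530 and 83442 FPKM during LL, 31, 17.6 and 47.8 during DP and 3851, 6044 and 4919 during LG, and LALBA, which encodes alpha lactalbumin, was at 33600, 29745 and 15626 FPKM during LL, 6.92, 3.84 and 3.74 during DP and 1079, 490 and 130 during LG. The values of CSN1S1, CSN1S2 and CSN3 lie on a straight line with each other, nearly equal where they are high (90859, 90861 and 90874 FPKM in LL1) and a small offset apart where they are low (27.6, 29.4 and 41.7 in DP1), so they are not separate measurements and no sum over the caseins is given. The 10 most abundant genes of a library took up 80.6% to 86% of its summed FPKM in LL and 53.6% to 58.5% in DP and LG, which leaves a smaller share for all other genes in LL. The gene model LOC102178810 lies on the same line as CSN1S1, CSN1S2 and CSN3. With 3 of these 4 genes left out of each LL library and 1 kept, the share there was 77.6% to 84.1%. The libraries were therefore brought to a common scale by median-ratio factors, and the scaled value of a gene is its FPKM divided by the factor of the library, 0.498, 0.553 and 0.605 in LL1 to LL3, 1.53, 1.44 and 1.44 in DP1 to DP3 and 1.2, 1.23 and 1.31 in LG1 to LG3. On the scaled values the median log2 fold change of all 14701 genes tested was 0 in DP against LL and 0.02 in LG against LL. Without scaling it was 1.09 and 0.93, and with the alternative of scaling by the sum without the top 10 genes 0.62 and 0.23, so that with unscaled values a gene with equal FPKM in the 3 stages lay below most other genes in DP and LG. Both the deposited and the scaled values are given, because the direction of several genes depends on this step.

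On the scaled values, 5 of the 10 genes were lower in DP than in LL past the threshold used by the study, an adjusted p below 0.05 in limma together with a log2 fold change of at least 1, and none was higher. Over all genes tested, 8.79% were called lower and 13.8% called higher in the same comparison. The 5 were DNAJB9, ATF4, HERPUD1, DDIT3 and HSPA5. In LG against LL 4 genes were lower, the same ones without HSPA5, where 6.61% of all genes were called lower and 10.7% higher. The median log2 fold change of the 10 genes was -0.98 in DP against LL and -0.76 in LG against LL, both with the same 3 LL libraries as reference. The medians were smaller with quantile normalization (-0.36 and -0.56) and with the sum without the top 10 genes (-0.21 and -0.5), and above 0 without scaling (0.42 and 0.29). The median of all genes was 0 and 0.01 with quantile normalization, and is given above for the other settings. Less that median, the median of the 10 genes was -0.83 and -0.73 with the sum without the top 10 genes. It was -0.67 and -0.64 without scaling and -0.36 and -0.57 with quantile normalization, below the other genes in each case. The counts rest on the scaling too. With quantile normalization 3 and 4 genes were lower, beside 7.33% and 5.8% of all genes. With scaling by the sum without the top 10 genes 2 and 4 were lower, beside 4.05% and 4.8% of all genes. Without scaling none was lower, and 2 in DP (ATF6 and HSP90B1) and 1 in LG (HSP90B1) were higher. Under that setting 54.3% and 45.6% of all genes were called higher and 2.51% and 2.35% lower. ATF4 and DNAJB9 were called lower in both comparisons under all 3 ways of scaling, and their unscaled fold changes were also below 0.

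**Figure D1:**
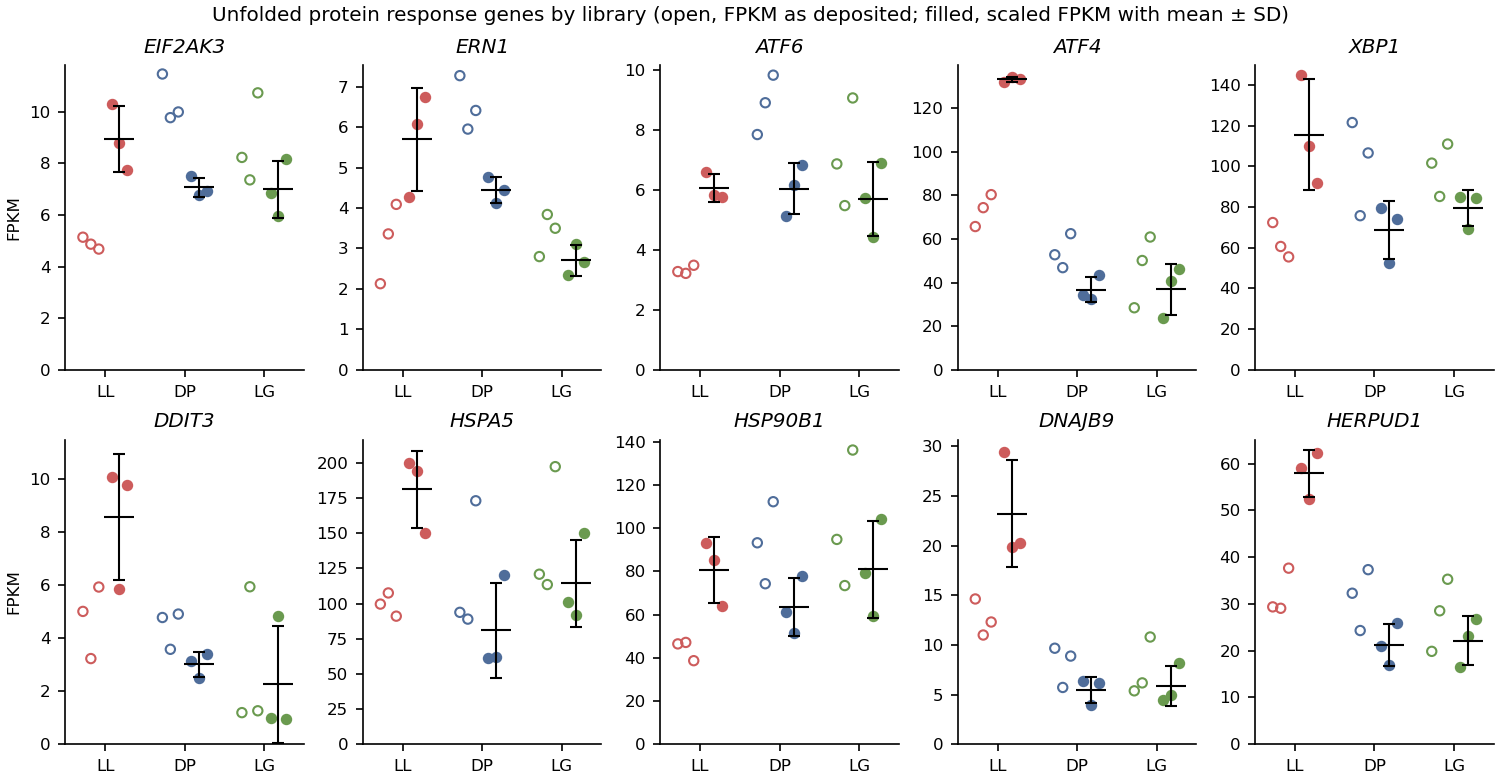
FPKM of the 10 genes (y axis, linear and starting at 0) in the libraries of late lactation (LL), the dry period (DP) and late gestation (LG), 1 point per goat; open points are FPKM as deposited, filled points are scaled FPKM, and bars are the mean and SD of the 3 scaled values. For ATF4 and DNAJB9 the LL points lie above all DP and LG points on both scales, whereas for ATF6 and HSP90B1 the scaled points of the stages overlap and the deposited points of LL lie lowest.

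EIF2AK3 (gene ID 102185575; chromosome 11, 47043527 to 47126252, plus strand; the table names no build for its coordinates) encodes PERK, the sensor upstream of ATF4. Its deposited FPKM was 5.14, 4.87 and 4.68 during LL, 11.5, 9.77 and 9.99 during DP and 8.23, 7.36 and 10.7 during LG. After scaling it was 10.3, 8.8 and 7.73 during LL, 7.5, 6.78 and 6.94 during DP and 6.87, 5.97 and 8.17 during LG. Deposited values of LL thus lay below those of both other stages, and scaled values of LL lay above those of DP and overlapped those of LG. The log2 fold change was -0.29 ± 0.14 (SE, n = 3 libraries per stage) in DP against LL (limma, adjusted p = 0.105) and -0.32 ± 0.14 in LG against LL (limma, adjusted p = 0.0942), and it turned positive, to 0.95 and 0.71, without scaling.

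ERN1 (gene ID 102173038; chromosome 19, 47881794 to 47964983, minus strand) encodes IRE1, the kinase and RNase that splices XBP1. As deposited, its FPKM was 2.13, 3.36 and 4.09 during LL, 7.27, 5.95 and 6.41 during DP and 2.8, 3.84 and 3.5 during LG, and its scaled FPKM was 4.28, 6.07 and 6.75 during LL, 4.76, 4.13 and 4.45 during DP and 2.34, 3.11 and 2.66 during LG. On the scaled values all LG libraries lay below all others. The log2 fold change of LG against LL was -0.84 ± 0.16 (SE; limma, adjusted p = 0.00189), short of the required fold, and it was 0.08 without scaling. It passed at -1.03 without LL1 (limma, adjusted p = 0.000791), the LL library with the lowest ERN1. DP against LL gave -0.28 ± 0.16 (limma, adjusted p = 0.144), and 0.87 without scaling.

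ATF6 (gene ID 102184016; chromosome 3, 112308238 to 112551936, plus strand) encodes the sensor that is itself the precursor of a transcription factor. Before scaling its FPKM was 3.28, 3.22 and 3.49 during LL, 7.85, 8.91 and 9.83 during DP and 6.87, 5.48 and 9.07 during LG. Scaled, it was 6.59, 5.82 and 5.76 during LL, 5.14, 6.18 and 6.83 during DP and 5.74, 4.44 and 6.9 during LG, and the 3 stages overlapped. Its log2 fold change was -0.01 ± 0.16 (SE) in DP against LL (limma, adjusted p = 0.972) and -0.09 ± 0.16 in LG against LL (limma, adjusted p = 0.654), and 1.18 and 0.89 without scaling. An unnamed gene model on the same strand, LOC102183472, overlaps ATF6 over 1602 bases, and reads from there cannot be assigned to either.

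ATF4 (gene ID 102185072; chromosome 5, 109871889 to 109874009, plus strand) encodes the factor whose translation rises under PERK. The deposited FPKM of ATF4 was 65.7, 74.3 and 80.3 during LL, 52.7, 46.8 and 62.4 during DP and 28.5, 50.1 and 60.9 during LG, so that the lowest LL library exceeded the highest DP and LG libraries before any scaling. Scaled FPKM was 132, 134 and 133 during LL, 34.5, 32.5 and 43.3 during DP and 23.8, 40.6 and 46.3 during LG. ATF4 fell 3.57-fold on the log2(scaled FPKM + 1) scale in DP against LL (log2 fold change -1.84 ± 0.24 (SE), limma, adjusted p = 0.000174) and 3.67-fold in LG against LL (-1.87 ± 0.24, adjusted p = 0.000215). Under quantile normalization the 2 log2 fold changes were -1.13 and -1.46, with the sum without the top 10 genes -1.08 and -1.59, and without scaling -0.44 and -0.71, where neither reached the required fold.

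XBP1 (gene ID 102184460; chromosome 17, 3041839 to 3046873, plus strand) encodes the factor made active by IRE1. Its deposited FPKM was 72.4, 60.6 and 55.5 during LL, 121, 75.7 and 107 during DP and 102, 85.2 and 111 during LG, with all LL libraries lowest. Its scaled FPKM was 145, 110 and 91.7 during LL, 79.5, 52.5 and 74 during DP and 84.8, 69.1 and 84.4 during LG, with all LL libraries highest. The log2 fold change was -0.74 ± 0.22 (SE) in DP against LL (limma, adjusted p = 0.0177) and -0.52 ± 0.22 in LG against LL (limma, adjusted p = 0.0776). Neither was called, and the value in DP became 0.05 with quantile normalization, 0.03 with the sum without the top 10 genes and 0.66 without scaling.

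Plasma cells also carry much XBP1, and their markers varied widely. The summed FPKM of 10 plasma and B cell markers was 425, 280 and 120 during LL, 219, 209 and 63 during DP and 31.5, 19.2 and 25.8 during LG. JCHAIN, the joining chain of immunoglobulins, made up most of that sum, at 414, 272 and 114 FPKM during LL, 161, 195 and 54.1 during DP and 26.7, 12.5 and 21.2 during LG. The other 9 markers summed to 10.5, 8.18 and 5.5 FPKM during LL, 57.6, 13.8 and 8.91 during DP and 4.76, 6.76 and 4.57 during LG, so that DP1 stood far above the rest, and no marker was at 0 in all 9 libraries. On the scaled values 5 of the 10 markers were tested, and JCHAIN was called lower in DP than in LL and JCHAIN and MZB1 in LG. The JCHAIN call in DP was lost with quantile normalization and without scaling. In LL the order of the libraries was the same for XBP1 and JCHAIN, and in LG the library LG2 was lowest for both. In DP the library with the lowest XBP1 had the highest JCHAIN. The part of these cells in the XBP1 level was not tested.

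DDIT3 (gene ID 102175557; chromosome 5, 55282316 to 55286252, plus strand) encodes CHOP, a factor tied to cell death under lasting ER stress. It was at 5.01, 3.23 and 5.93 FPKM during LL, 4.78, 3.58 and 4.91 during DP and 1.19, 5.94 and 1.26 during LG, with LG2 as the highest of all 9 libraries and the other LG libraries as the lowest. Scaled FPKM was 10.1, 5.84 and 9.79 during LL, 3.13, 2.48 and 3.41 during DP and 0.994, 4.82 and 0.959 during LG, all below the LL values. The log2 fold change was -1.23 ± 0.38 (SE) in DP against LL (limma, adjusted p = 0.0209) and -1.72 ± 0.38 in LG against LL (limma, adjusted p = 0.00479). In DP the call was lost without LL1 (-1.14, limma, adjusted p = 0.0647), without LL3 (-1.15, limma, adjusted p = 0.0632) or without DP2 (-1.12, limma, adjusted p = 0.0584), and with the sum without the top 10 genes (-0.6, limma, adjusted p = 0.189). Without scaling neither call held, at -0.06 in DP (limma, adjusted p = 0.891) and -0.79 in LG (limma, adjusted p = 0.0895). Its last 65 bases overlap MARS, the methionyl tRNA synthetase gene on the opposite strand, and without strand the reads there cannot be told apart. MARS was at 12.3, 12.6 and 11.9 FPKM during LL, 11.4, 14.8 and 13.5 during DP and 12.1, 12 and 19.1 during LG, and its own log2 fold change in DP against LL was -1.22 (limma, adjusted p = 0.000459).

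HSPA5 (gene ID 102185663; chromosome 11, 95624833 to 95629167, minus strand) encodes BiP, an abundant ER chaperone and the protein that holds the sensors inactive. As deposited, its FPKM was 99.6, 108 and 91.1 during LL, 93.8, 89 and 173 during DP and 121, 114 and 197 during LG, and its scaled FPKM was 200, 194 and 150 during LL, 61.4, 61.7 and 120 during DP and 101, 92 and 150 during LG. DP3 and LG3 stood well above the other libraries of their stage on both scales. HSPA5 fell 2.32-fold in DP against LL (log2 fold change -1.22 ± 0.29 (SE), limma, adjusted p = 0.00624), but the call was lost with quantile normalization (-0.38, limma, adjusted p = 0.213) and with the sum without the top 10 genes (-0.45, limma, adjusted p = 0.2), and without scaling the value was 0.19. In LG against LL it was -0.68 ± 0.29 (limma, adjusted p = 0.0762), and 0.49 without scaling.

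HSP90B1 (gene ID 102179454; chromosome 5, 66288024 to 66306511, plus strand) encodes GRP94, the HSP90 chaperone of the ER. It was at 46.4, 47.1 and 38.6 FPKM during LL, 93.2, 74.3 and 112 during DP and 94.8, 73.4 and 136 during LG, with no overlap between LL and the other stages. After scaling the stages overlapped, at 93.2, 85.1 and 63.8 during LL, 61, 51.5 and 78 during DP and 79.1, 59.5 and 104 during LG. The log2 fold change was -0.34 ± 0.25 (SE) in DP against LL (limma, adjusted p = 0.251) and -0.02 ± 0.25 in LG against LL (limma, adjusted p = 0.959), and its direction turned with every other way of scaling, to 0.39 and 0.34 with quantile normalization and to 1.05 and 1.14 without scaling. Less the median of all genes the unscaled values were -0.04 and 0.22.

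DNAJB9 (gene ID 102187454; chromosome 4, 60611791 to 60617558, plus strand) encodes ERdj4, a J domain co-chaperone of BiP. Before scaling its FPKM was 14.6, 11 and 12.3 during LL, 9.66, 5.71 and 8.87 during DP and 5.37, 6.17 and 10.8 during LG, with every LL library above every other one and LG3 closest to them. Scaled FPKM was 29.4, 19.9 and 20.3 during LL, 6.32, 3.96 and 6.16 during DP and 4.48, 5 and 8.21 during LG. It fell 3.73-fold in DP against LL (log2 fold change -1.9 ± 0.24 (SE), limma, adjusted p = 0.000173) and 3.55-fold in LG against LL (-1.83 ± 0.24, limma, adjusted p = 0.000306). The 2 values were -1.73 and -1.67 with quantile normalization, -1.2 and -1.55 with the sum without the top 10 genes and -0.61 and -0.74 without scaling.

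HERPUD1 (gene ID 102188888; chromosome 18, 26328179 to 26340158, plus strand) encodes a protein that helps to assemble the complex for ER-associated degradation. Its deposited FPKM was 29.4, 29.1 and 37.6 during LL, 32.3, 24.3 and 37.3 during DP and 19.9, 28.5 and 35.3 during LG, so the stages overlapped. Scaled FPKM was 59, 52.5 and 62.2 during LL, 21.1, 16.9 and 25.9 during DP and 16.6, 23.1 and 26.8 during LG, with no overlap between LL and the others. The log2 fold change was -1.42 ± 0.21 (SE) in DP against LL (limma, adjusted p = 0.000424) and -1.37 ± 0.21 in LG against LL (limma, adjusted p = 0.000676). In DP it stayed below 0 but short of the required fold with quantile normalization (-0.89) and with the sum without the top 10 genes (-0.67), and it was -0.04 without scaling.

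**Figure D2:**
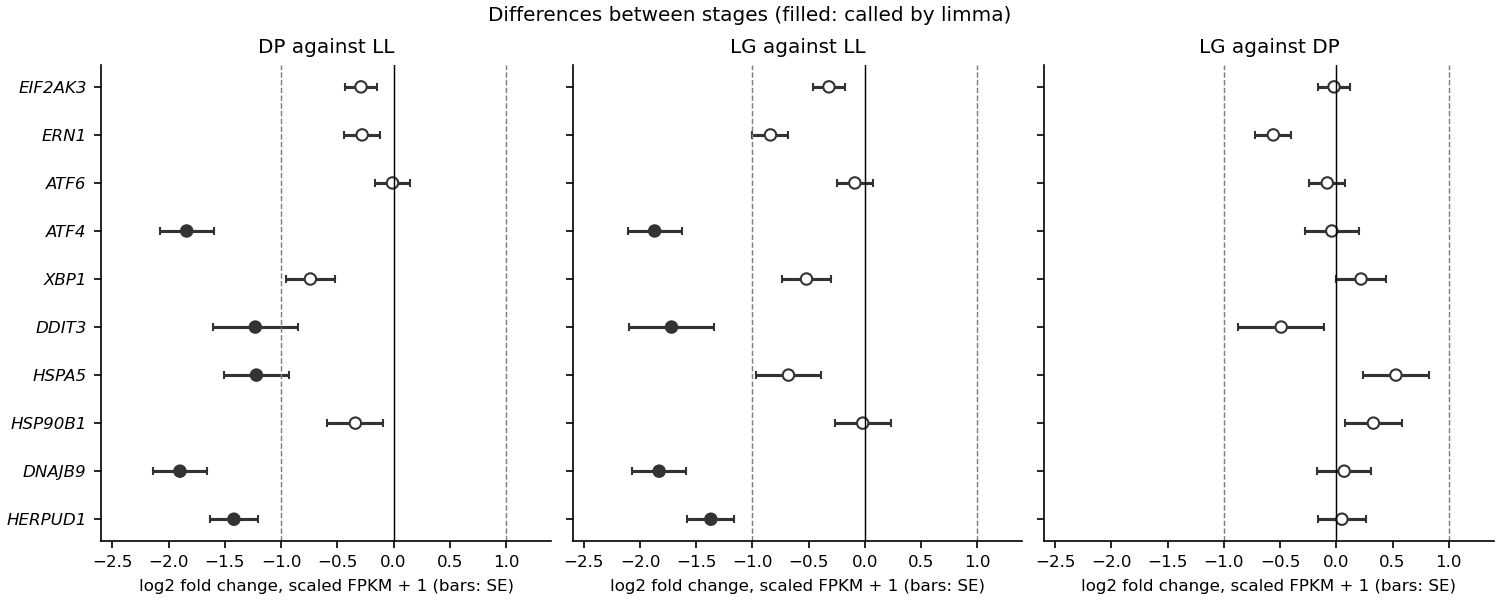
Log2 fold change (x axis, log2 of scaled FPKM + 1) of each gene (y axis) in the 3 comparisons, with the standard error of limma as bars; filled points passed an adjusted p of 0.05 and a log2 fold change of 1 (dashed lines). In both comparisons with LL the filled points lie between -1.22 and -1.9, and in LG against DP no point is filled.

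**Figure D3:**
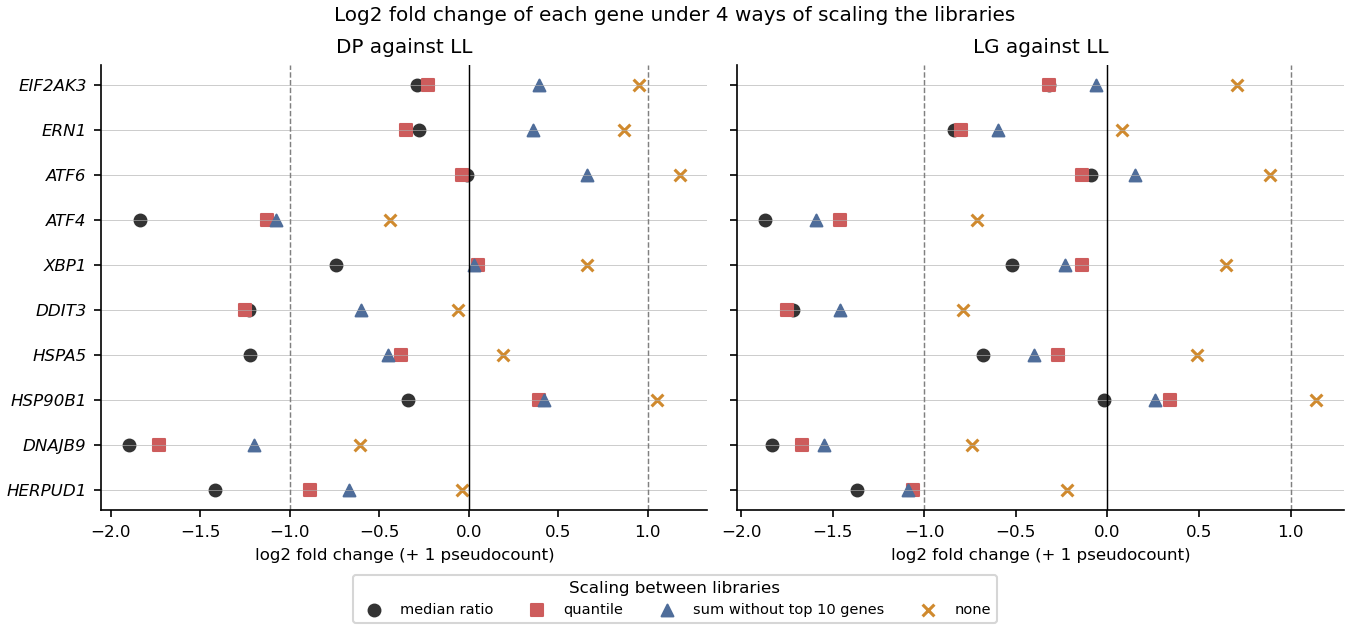
Log2 fold change (x axis) of each gene (y axis) in DP and LG against LL under 4 ways of scaling the libraries, shown by the shape of the point; dashed lines mark 1 and -1. ATF4 and DNAJB9 lie left of -1 under every scaling and between -0.44 and -0.74 without it, whereas HSP90B1 ranges from -0.34 to 1.05 in DP against LL.

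In LG against DP none of the 10 genes was called by limma in either direction. Over all genes tested 6.37% were called higher and 6.88% lower in LG, so a count of 0 among 10 is near the background. At an unadjusted p below 0.05 there was 1 gene, ERN1. ERN1 was lower in LG by 0.56 ± 0.16 on the log2 scale (SE; adjusted p = 0.0203 in limma), and its LG libraries lay below all DP libraries on the deposited and on the scaled values. HSPA5 had the largest log2 fold change upwards, 0.53 ± 0.29 (limma, adjusted p = 0.184), followed by HSP90B1 with 0.33 ± 0.25 (limma, adjusted p = 0.328) and XBP1 with 0.22 ± 0.22 (limma, adjusted p = 0.464), and the directions of HSP90B1 and XBP1 turned with quantile normalization (-0.05 and -0.19). DDIT3 was at -0.49 ± 0.38 (limma, adjusted p = 0.342). It became the single called gene, at -1.01 (limma, adjusted p = 0.0102), without LG2. The log2 fold changes of ATF4, ATF6, EIF2AK3, DNAJB9 and HERPUD1 lay between -0.08 and 0.07.

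Ratios between genes of the same library are not changed by dividing the library by a factor, though quantile normalization can change them. HSP90B1 stood at 0.466, 0.438 and 0.424 of HSPA5 in LL, at 0.994, 0.835 and 0.648 in DP and at 0.784, 0.647 and 0.69 in LG, so every DP and LG library had relatively more of the GRP94 gene beside the BiP gene than any LL library. The difference in the mean log2 ratio was 0.88 for DP and 0.67 for LG against LL, each with p = 0.1 in the exact two-sided permutation test, the smallest that 3 libraries against 3 can give (adjusted p = 0.24 over 12 tests). DNAJB9 stood at 0.498, 0.378 and 0.327 of HERPUD1 in LL, at 0.299, 0.235 and 0.238 in DP and at 0.271, 0.216 and 0.306 in LG. Here the LL ratios were the higher ones, with log2 differences of -0.63 and -0.59 and again p = 0.1 in the exact permutation test (adjusted p = 0.24). The ratio of XBP1 to ERN1, the substrate and its splicing enzyme, was higher in every LG than in every DP library (log2 difference 0.95, exact permutation p = 0.1, adjusted p = 0.24), and LL overlapped both. The ratio of HSPA5 to DDIT3, chaperone to CHOP, overlapped in all 3 comparisons, with exact permutation p of 0.3 to 0.6. It was 102 in LG1, 19.1 in LG2 and 157 in LG3, and at most 33.3 in LL and 35.3 in DP. The log2 difference of LG was 1.63 against LL and 1.38 against DP. With a library left out these ranged from 1.02 to 2.54 and from 0.77 to 2.29. None of the 12 ratio tests could pass the threshold in this design.

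**Figure D4:**
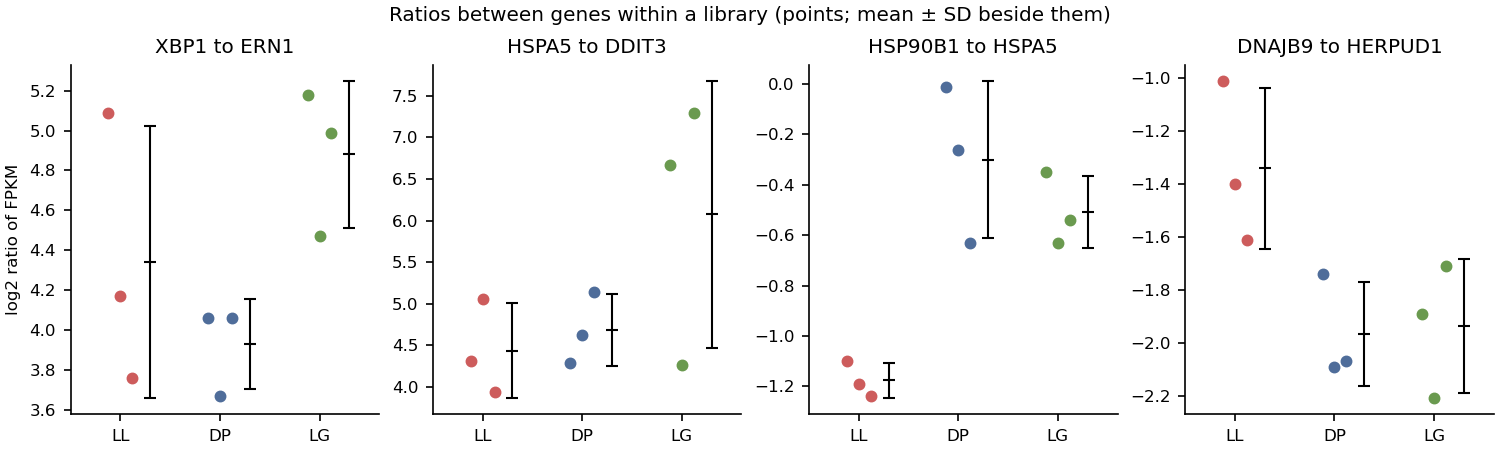
Log2 ratio of deposited FPKM (y axis, a separate range in each panel that does not start at 0) for 4 pairs of genes in the libraries of LL, DP and LG; points are libraries and bars the mean and SD of 3. The ratio of HSP90B1 to HSPA5 is lowest in the 3 LL libraries, that of DNAJB9 to HERPUD1 is highest in them, and that of HSPA5 to DDIT3 spreads most in LG, where LG2 is lowest.

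FPKM are per length, so levels can be set beside each other between genes. In LL the order by mean scaled FPKM was HSPA5 at 182 ± 27.2 (SD, n = 3), ATF4 at 133 ± 1.25, XBP1 at 116 ± 27.4, HSP90B1 at 80.7 ± 15.2, HERPUD1 at 57.9 ± 4.91, DNAJB9 at 23.2 ± 5.36, EIF2AK3 at 8.95 ± 1.31, DDIT3 at 8.57 ± 2.37, ATF6 at 6.06 ± 0.461 and ERN1 at 5.7 ± 1.28. Neighbours overlapped from ATF4 through XBP1 to HSP90B1 and from EIF2AK3 through DDIT3 and ATF6 to ERN1. In DP the upper genes were HSPA5 at 81.1 ± 33.9, XBP1 at 68.7 ± 14.2 and HSP90B1 at 63.5 ± 13.4, which overlapped, with ATF4 at 36.8 ± 5.77 and HERPUD1 at 21.3 ± 4.54 apart from them and from each other. EIF2AK3, ATF6, DNAJB9 and ERN1 followed at 7.07 ± 0.378, 6.05 ± 0.854, 5.48 ± 1.32 and 4.45 ± 0.315, each overlapping its neighbour, and DDIT3 was lowest at 3.01 ± 0.475. In LG HSP90B1 at 80.7 ± 22.1 overlapped both HSPA5 at 114 ± 31.3 and XBP1 at 79.4 ± 8.99, which did not overlap each other, and ATF4 at 36.9 ± 11.7 overlapped HERPUD1 at 22.2 ± 5.2. EIF2AK3, DNAJB9 and ATF6, at 7, 5.9 and 5.69, formed the next overlapping group, and ERN1 at 2.7 ± 0.389 and DDIT3 at 2.26 ± 2.22 came last. DDIT3 ranged from 0.959 to 4.82 and overlapped ERN1, ATF6 and DNAJB9. DNAJB9 thus stood clear of the sensors in LL and among them in DP and LG.

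The libraries of a stage were not alike. LL1 held the highest scaled value of its stage for 7 of the 10 genes, DP3 for 6 and LG3 for 7, while DP2 held the lowest for 8 genes and LL3 and LG2 for 5 each. Relative to its mean, scaled ATF4 was the least variable of the 10 genes in LL, at 132 to 134, while its deposited FPKM there was 65.7 to 80.3. Markers of some other cells moved with stage as well. The summed FPKM of 6 T cell markers was 3.22 to 3.92 during LL, 26.9 to 89.2 during DP and 18.3 to 26.9 during LG, with CD2 the most abundant by its mean over the 9 libraries. That of 6 fibroblast markers was 105 to 196 during LL, 768 to 3440 during DP and 624 to 1180 during LG, with COL3A1 highest by the same measure and DP3 at the top. On the scaled values 5 T cell and 5 fibroblast markers were called higher in DP than in LL, and 3 and 2 in LG. Of all genes 13.8% were called higher in DP and 10.7% in LG. The fibroblast markers called in LG were COL1A1 and COL3A1, and COL1A2 was at 1.68 on the log2 scale. LUM was at 0.01 there, DCN at -0.24 and PDGFRA at -0.76 (limma, adjusted p = 0.0109). The 6 macrophage and myeloid markers summed to 26.5 to 30.4 FPKM during LL, 135 to 164 during DP and 40.3 to 42.9 during LG, with TYROBP highest by its mean over all libraries. Their direction in LG depends on the scaling, since the scaled sums were 48 to 61.1 during LL, 94.1 to 114 during DP and 30.7 to 35.8 during LG, and CD68 and CD14 were called lower in LG than in LL. The 5 markers of proliferation summed to 5.33 to 6.99 FPKM during LL, 15.6 to 18.2 during DP and 30.2 to 56.6 during LG, with PCNA the most abundant. Scaled sums were 9.82 to 11.5, 10.8 to 11.9 and 24.5 to 47.2. TOP2A, CCNB1 and CDK1 were called higher in LG than in LL and than in DP, with TOP2A at 2.19 and CDK1 at 2.57 on the log2 scale against LL, and none of the 5 was called in DP against LL. None of these markers was at 0 in all 9 libraries, though CCNB1 was listed at 0 in LL1 and LL2. Of 5 endothelial markers tested none was called in either comparison with LL. Of 5 myoepithelial markers tested none was called in DP against LL and 1 was higher in LG. Of 3 adipocyte markers tested 1 was lower in each, beside 8.79% and 6.61% of all genes. In total tissue, fewer cells of a type and less RNA per cell cannot be told apart, and the part of cell composition in the values of the 10 genes was not tested.

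Further genes of the pathway were taken from 4 lists, in which the values of EIF2AK1, CNPY2 and VCP lie on a straight line with those of a neighbouring gene and are not separate measurements. Of 21 other regulators of the response, 19 were tested (ERN2 and CREB3L4 were too low), and in DP against LL 1 was higher and 2 were lower, with a list median of -0.22. Over all genes 13.8% were higher and 8.79% lower there, so these counts are near or below the background. TRAF2, the adaptor that couples IRE1 to stress kinases, rose (log2 fold change 1.03 ± 0.22 (SE), limma, adjusted p = 0.00349), from 3.9, 5.62 and 5.97 deposited FPKM in LL to 34, 29.9 and 24.6 in DP. Without LL1 or DP1 it fell short of the required fold, at 0.92 and 0.95. TMBIM6, an ER membrane protein that restrains IRE1, fell (-1.97 ± 0.19, limma, adjusted p = 3.69e-05), and so did PPP1R15B, which directs the phosphatase to eIF2 alpha (-1.21 ± 0.22, limma, adjusted p = 0.00151). The PPP1R15B call was lost with quantile normalization (-0.94), with the sum without the top 10 genes (-0.49, limma, adjusted p = 0.0974) and without scaling (0.12). In LG against LL the count was again 1 higher and 2 lower with a median of -0.24, beside 10.7% and 6.61% of all genes. TRAF2 rose by 1.13 ± 0.22 (limma, adjusted p = 0.00248; 0.88 without LG2), MAP3K5, the stress kinase ASK1 that acts below TRAF2, fell by 1.17 ± 0.22 (limma, adjusted p = 0.00223), and TMBIM6 fell by 1.04 ± 0.19 (limma, adjusted p = 0.00196), a value that was 0.13 without scaling, -0.48 with quantile normalization and -0.94 without LL2, and that also just missed the required fold without LG2. Without LG2 only 1 of the list was called. Between LG and DP none of the 19 was called, and 1 was higher without DP1. Without scaling 9 regulators were called higher in DP and 7 in LG, and none lower, beside 54.3% and 45.6% of all genes called higher under that setting and 2.51% and 2.35% lower, with TMBIM6 at -0.57 in DP and MAP3K5 at -0.15 in LG. With the sum without the top 10 genes MAP3K5 (-0.91) and TMBIM6 (-0.76) missed the required fold in LG.

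Among 21 genes of ER chaperones and folding enzymes, all tested, 1 was higher and 6 were lower in DP against LL, beside 13.8% and 8.79% of all genes, with a median of -0.78. SDF2L1, a partner of the BiP machinery, fell the most (-2.31 ± 0.17 (SE), limma, adjusted p = 7.26e-06), from 14, 13.5 and 11.3 deposited FPKM in LL to 5.18, 5.36 and 6.84 in DP. ERO1A, the oxidase that recharges protein disulfide isomerase, fell by 1.86 ± 0.29 (limma, adjusted p = 0.000645), while its paralogue ERO1B rose by 1.64 ± 0.16 (limma, adjusted p = 3.78e-05), from 0.18, 0.14 and 0.44 deposited FPKM to 6.4, 4.46 and 4.65. In LG against LL 3 were lower and none higher, beside 6.61% and 10.7% of all genes, with a median of -0.41. These included ERO1A (-2.29 ± 0.29, limma, adjusted p = 0.000251) and SDF2L1 (-1.55 ± 0.17, limma, adjusted p = 8.67e-05). Without LL3 the counts rose to 11 in DP (1 higher and 10 lower) and 5 in LG (1 higher and 4 lower). No share of all genes is given for that fit, so these counts have no background beside them. In LG against DP 1 was called, SIL1, the exchange factor of BiP, which was higher by 1.22 ± 0.17 (limma, adjusted p = 0.000613), and 2 were called without DP2 or without LG3. In DP against LL the split was 1 higher and 3 lower with quantile normalization, and 2 higher and 3 lower with the sum without the top 10 genes, where 30.5% of all genes were higher and 4.05% lower. Without scaling the split was 4 higher and 1 lower in DP and 7 higher and 1 lower in LG, again beside 54.3% and 45.6% of all genes higher, and the calls of ERO1A in DP (-0.61) and SDF2L1 in LG (-0.45) were lost. SIL1 was at 0.79 with the sum without the top 10 genes.

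Of 22 symbols listed for ER-associated degradation, of which VIMP and SELENOS name the same gene, 19 were found and tested, and 3 were lower and none higher in each comparison with LL, where 8.79% (DP) and 6.61% (LG) of all genes were lower, with medians of -0.51 in DP and -0.45 in LG. SYVN1, the ubiquitin ligase HRD1, had the largest fold change of the list in both (-2.51 ± 0.17 (SE), limma, adjusted p = 5.59e-06, and -2.2 ± 0.17, limma, adjusted p = 1.51e-05). Before scaling its FPKM was 12.6, 17.4 and 18.3 during LL, 6.61, 5.98 and 6.08 during DP and 4.84, 7.26 and 9.09 during LG, though SYVN1 overlaps MRPL49 on the opposite strand. VIMP, a membrane adaptor of the segregase VCP, fell by 1.53 ± 0.18 in DP (limma, adjusted p = 0.000102), and DERL3, a derlin of secretory cells, by 1.11 ± 0.31 in LG (limma, adjusted p = 0.0132; -0.99 without LL1). Without LG3 the count in LG was 6 lower, again with no share of all genes for that fit. None was called in LG against DP. Without scaling the split was 5 higher and 1 lower in DP and 4 higher and 1 lower in LG, below the share of all genes called higher under that setting (54.3% and 45.6%), with VIMP at -0.17 and DERL3 at -0.11, and both also missed the required fold with the sum without the top 10 genes (-0.79 and -0.85).

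The targets of ATF4 and CHOP were the list with the most calls. Of 26 genes 25 were matched and 23 tested, of which 14 were lower and 2 higher in DP against LL and 16 lower and none higher in LG against LL, with medians of -1.64 and -1.93. Over all genes 8.79% and 6.61% were called lower and 13.8% and 10.7% higher. Lower calls outnumbered higher ones under the other ways of scaling too. With quantile normalization 12 were lower in DP and 16 in LG, against 1 and 0 higher. Of all genes 7.33% and 5.8% were lower there and 10.7% and 7.4% higher. With the sum without the top 10 genes 12 and 15 were lower, against 3 and 0 higher. Shares of all genes were then 4.05% and 4.8% lower and 30.5% and 13.3% higher. Without scaling 8 and 11 were lower, against 3 and 2 higher, where 2.51% and 2.35% of all genes were lower and 54.3% and 45.6% higher. TRIB3, a pseudokinase induced through ATF4 and CHOP, was at 9.64, 22.2 and 16.6 deposited FPKM during LL, 0.85, 0.98 and 2.22 during DP and 0.16, 1.02 and 1.99 during LG, and fell by 3.94 ± 0.33 (SE; limma, adjusted p = 1.64e-05) and 4.05 ± 0.33 (limma, adjusted p = 2.04e-05) on the log2 scale. ASNS, asparagine synthetase, was at 15.6, 18.9 and 16.9 FPKM during LL, 3.29, 4.95 and 5.8 during DP and 2.17, 1.98 and 3.93 during LG (LG against LL -3.38 ± 0.21, limma, adjusted p = 4.67e-06). PSAT1, an enzyme of serine synthesis, was at 68.3, 83 and 99.4 FPKM during LL, 13.7, 15.9 and 12.3 during DP and 24.3, 19.4 and 29.3 during LG (DP against LL -3.85 ± 0.17, limma, adjusted p = 5.03e-07). For these 3 genes, named for their large fold changes, every LL library lay above every other library on the deposited values. Others of the list, such as ATF3, ATF5, NUPR1 and MTHFD2, were called lower in DP although their deposited values overlapped between LL and DP. The milk protein values given above differ between the stages as well, and the part of secretory activity in the values of this list was not tested.

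The genes of this list that were higher in DP were STC2, a secreted glycoprotein, and BBC3, which encodes the death promoting protein PUMA. STC2 was at 3.88, 2.65 and 2.14 deposited FPKM during LL, 13.7, 35 and 31.3 during DP and 0.02, 0.06 and 0.24 during LG, a separation of all 3 stages. It rose by 1.55 ± 0.34 in DP against LL (SE; limma, adjusted p = 0.00419) and fell by 4.05 ± 0.34 in LG against DP (limma, adjusted p = 7.05e-05). BBC3 was at 0.07, 0.14 and 0.46 FPKM in LL and 6.48, 3.35 and 1.95 in DP (1.34 ± 0.3, limma, adjusted p = 0.00451), and 0.85 with quantile normalization (limma, adjusted p = 0.0519). In LG against DP 4 genes of the list were lower and none higher, beside 6.88% and 6.37% of all genes, among them GADD45A, a gene of growth arrest (-1.61 ± 0.39, limma, adjusted p = 0.0105).

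**Figure D5:**
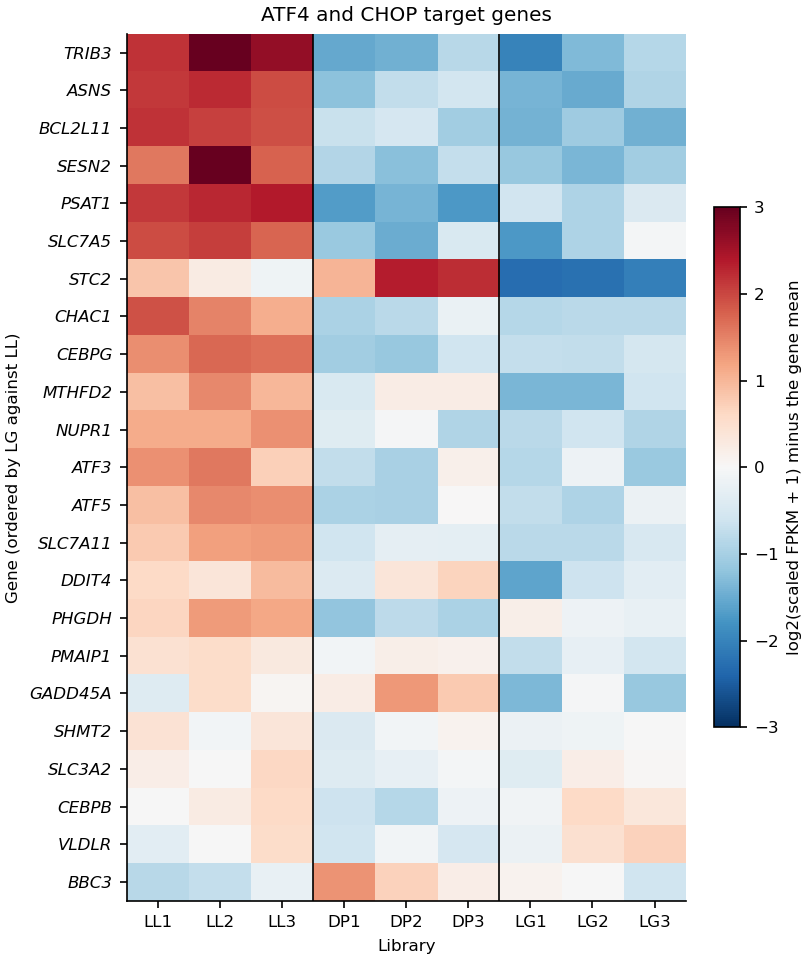
Expression of the 23 tested targets of ATF4 and CHOP (rows, ordered by LG against LL) in the 9 libraries (columns); colour is log2(scaled FPKM + 1) minus the mean of the gene over the libraries, on a scale from -3 to 3 beyond which colours do not change. Most rows are red in LL1 to LL3 and blue in the other libraries, while STC2 is highest in the DP libraries. By stage mean GADD45A is highest in DP and BBC3 lowest in LL, though GADD45A overlaps between LL and DP and BBC3 between LL and LG.

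Likeness to the 10 genes across the libraries was described for XBP1, HSPA5 and DDIT3 by Pearson's r of the scaled log2 values over the 9 libraries, which share the scaling and the 3 stages, among 9971 genes. For XBP1 the nearest were PDIA4 (r = 0.94), an ER protein disulfide isomerase, TXNDC15 (0.938) and MEST (0.937). For HSPA5 they were EMC7 (0.982), a subunit of the ER membrane complex, WSB2 (0.977) and REXO2 (0.977), and for DDIT3 they were CSRNP1 (0.956), ZBTB49 (0.953) and LIME1 (0.942).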

How the data were processed

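The members and lists were chosen with earlier results of these data known. The authors deposited 1 value per gene and library, read here as FPKM because the values carry decimals and sum to 601250 to 1157015 per library. The table names no unit or build. The submitters' processing notes name FastQC, Trimmomatic, HISAT2, SAMtools and HTSeq without versions, the study's methods name StringTie for quantification, and the step to 1 value per gene is not described. Low values showed no step of whole reads, so depth is unknown and no counting error can be given. Replicates are different goats.

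Scaling used median-ratio factors computed over 15905 genes, and log2 was taken after adding a pseudocount of 1, so fold changes of low genes are understated. A gene needed 0.5 FPKM or more in 3 or more libraries, and the 14701 that passed entered 1 fit over all 9 libraries with limma 3.58.1 in R 4.3.3 (eBayes with a trend), and Benjamini-Hochberg adjustment covered all genes tested. Calls needed an adjusted p below 0.05 and an absolute log2 fold change of 1 or more. Ratios were compared in Python 3.11.15 with an exact two-sided permutation test. The text names all 10 members and, for each list and comparison, the called genes with the largest fold change in each direction. Alternatives covered scaling, pseudocount, filter, libraries fitted, replicate block, trend and each library left out. Values of 599 genes in the table lie on a straight line with a neighbour, among them CSN1S1, CSN1S2 and CSN3, and no member is among them. Promoter motifs were not analysed here.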

Additional observations from a re-analysis of the deposited data

How the results depend on the processing

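The scaling between libraries changed more results than the other choices. Members called went from 5 to 2 (both higher) without scaling, to 3 with quantile normalization and to 2 with the sum without the top 10 genes in DP against LL, and from 4 to 1 (higher) without scaling in LG against LL. Calls over the 4 lists went from 5 to 8 in LG against DP with the sum without the top 10 genes. Of all genes 6.37% were higher and 6.88% lower there with median-ratio scaling, and 3.15% and 14.5% with the sum without the top 10 genes. With that scaling ER-associated degradation had 1 call in each comparison. List medians moved as well, together with the median of all genes (1.09, 0.93 and -0.18 in the 3 comparisons without scaling, and 0.62, 0.23 and -0.37 with the sum without the top 10 genes). Without scaling they were 0.98, 0.57, 0.63 and -0.51 in DP against LL and 0.8, 0.75, 0.56 and -0.9 in LG against LL for regulators, chaperones, degradation and ATF4 targets, against 0.44, -0.06, 0.13 and -1.09, and 0.02, -0.13, -0.2 and -1.66, with the sum without the top 10 genes. Less the median of all genes, each list was below 0 in both comparisons with LL under every scaling run, from -0.11 for regulators to -1.95 for ATF4 targets. With the adjusted p alone as the threshold, 1 member was called in LG against DP, and the lists had 51, 47 and 25 calls instead of 29, 25 and 5. Of all 14701 genes tested, 8359, 7383 and 5112 passed that threshold in the 3 comparisons. In DP against LL the values that turned without scaling were XBP1 0.66, ATF6 1.18, HSPA5 0.19, HSP90B1 1.05, ERN1 0.87, EIF2AK3 0.95 and PPP1R15B 0.12. Quantile normalization turned XBP1 (0.05) and HSP90B1 (0.39), and the sum without the top 10 genes turned XBP1 (0.03), ATF6 (0.66), HSP90B1 (0.42), ERN1 (0.36) and EIF2AK3 (0.39). In LG against LL they were XBP1 0.65, ATF6 0.89, HSPA5 0.49, HSP90B1 1.14, ERN1 0.08, EIF2AK3 0.71 and TMBIM6 0.13 without scaling, HSP90B1 0.34 with quantile normalization, and ATF6 0.15 and HSP90B1 0.26 with the sum without the top 10 genes. In LG against DP they were XBP1 -0.01, DNAJB9 -0.13 and HERPUD1 -0.18 without scaling, XBP1 -0.19, HSP90B1 -0.05 and HERPUD1 -0.17 with quantile normalization, and XBP1 -0.26, HSP90B1 -0.16, DNAJB9 -0.34 and HERPUD1 -0.42 with the sum without the top 10 genes. Without scaling and with the sum without the top 10 genes, these changes of sign contain the shift of all genes. Less that shift, ATF6 (0.09 and 0.04) was the only member above 0 in DP against LL and HSP90B1 (0.22 and 0.03) in LG against LL. XBP1 was then at 0.17 and 0.11 between LG and DP. For quantile normalization the cause was not tested.

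With each library left out in turn, members called ranged from 4 to 5, 4 to 5 and 0 to 1 in the 3 comparisons and list calls from 27 to 33, 22 to 29 and 4 to 6. Shares of all genes called are not given for these fits. Values close to 0 crossed it: ATF6 (-0.08 to 0.09) in DP against LL, ATF6 (-0.22 to 0.05) and HSP90B1 (-0.21 to 0.18) in LG against LL, and ATF4 (-0.23 to 0.24), ATF6 (-0.21 to 0.05), EIF2AK3 (-0.13 to 0.07), DNAJB9 (-0.16 to 0.22), HERPUD1 (-0.1 to 0.24) and the log2 ratio of DNAJB9 to HERPUD1 (-0.08 to 0.17) in LG against DP. A pseudocount of 0.1 made ERN1 in LG against LL a call (-1.03). Of 54 results of single genes, omitting the filter, omitting the trend or fitting only the 2 stages compared changed no call. Equal replicate numbers belong to different goats, and the deviations of libraries with the same number correlated at -0.11 to 0.2, against -0.22 to 0.07 for other numbers, with 6 of 9 libraries closest to one of their own number. With the replicate block 5, 4 and 0 members were called, as without it, and no call of the 54 changed. Depth is unknown, so low values such as STC2 in LG carry no counting error.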
